A study of Sus scrofa with 32 samples.

Results

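Gene expression in blood vessels (BV) and in stroma (S) was compared within the endometrium of 4 pregnant gilts (n = 4) on Day 14, using 1 library of each compartment from each animal. The members are the 8 libraries labelled as blood vessel or stroma of a pregnant pig, out of 31 analysed here, paired by the animal number in their labels, and the gilts are called P39, P41, P43 and P139 after that number. Of the 30185 genes counted, the 12186 that the authors' filtered tables list as detectable in BV or in S were tested, 10845 of them listed for both compartments, 251 for BV alone and 1090 for S alone. All gilts were prepuberal animals brought into cycle with eCG and hCG. The pregnant gilts were inseminated with German Landrace semen and their endometrium, without the muscle layer, was taken from hyperemic zones, where conceptuses attach. Cyclic gilts C40, C42, C78 and C128 had received the supernatant of semen of the same boar and are used here only to set the difference between BV and S beside that of pregnant gilts. Both compartments were cut from stained cryosections by laser capture microdissection, so a BV capture holds whole walls of the larger vessels with the blood in them, and an S capture holds the tissue between vessels and glands. The luminal epithelium (LE) and glandular epithelium (GE) of these animals, of which GE of gilt P41 was not analysed here, serve only as a reference for epithelial RNA.

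A vessel wall is built of an inner endothelium, a basement membrane and a coat of pericytes or smooth muscle cells, whose contraction sets the flow of blood. Smooth muscle owes its contractile genes to serum response factor and its partner myocardin, which act through CArG boxes, short DNA elements in the promoters of those genes. The stroma between the vessels is made mostly of fibroblasts, which lay down fibrillar collagens and respond to progesterone. In the pig the conceptus does not invade the endometrium, so vessels stay under an intact epithelium while their supply of blood rises at the sites of attachment.

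The BV libraries held 2415216 to 2819974 counts and the S libraries 2832169 to 4320928 counts, with 14.7% to 16.9% of them from ribosomal RNA genes. At this depth 3 counts over a group correspond to 0.279 CPM in BV and 0.224 CPM in S, and levels are given in CPM, counts of a gene relative to all counts of its library (scaled with TMM factors), always in the order of gilts P39, P41, P43 and P139. A fold change is the log2 of BV over S from a fit to the 4 pairs, so a positive value means a higher level in BV. It compares a gene with itself in both compartments, and since each library is bulk RNA, fewer cells of a type and less RNA per cell cannot be told apart. The SE given after ± is the absolute fold change over the square root of the F statistic of the edgeR test. This SE does not measure the spread between gilts. The BV library of gilt P139 stood apart, with Pearson correlations of log2 CPM over genes of 0.892 to 0.896 with the other BV libraries, which reached 0.943 to 0.945 among themselves. It held more smooth muscle and lymphatic and less endothelial and leukocyte RNA than the other BV libraries, so results that rest on it are given with and without gilt P139.

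The summed levels of marker lists bore out the labels in most gilts but not in all. Smooth muscle markers summed to 3484, 5594, 4082 and 12779 CPM in BV and 2489, 2147, 2678 and 2593 CPM in S, and BV was higher in every gilt. The endothelial sum was 5488, 5794, 5803 and 3603 CPM in BV against 1713, 2052, 3736 and 5369 CPM in S, higher in BV of gilts P39, P41 and P43 and lower in BV of gilt P139. Fibroblast markers reached 50230.4, 83438, 50733 and 34368 CPM in BV and 101467, 87529, 71818 and 45854 CPM in S, lower in BV of each gilt although the ranges overlapped. Both captures therefore held RNA of fibroblasts and of vessel cells. Red cell markers, HBB of hemoglobin and ALAS2 of heme synthesis, summed to 1770.4, 1491, 883 and 409 CPM in BV and 388, 176, 618 and 171 CPM in S, again higher in BV of all gilts. Lymphatic markers were at 47, 30.6, 30.1 and 521 CPM in BV and 297, 75.3, 52.4 and 32 CPM in S, with PROX1, the factor that fixes lymphatic identity, at 4.37, 8.13, 7.14 and 210.1 CPM in BV and 125, 25.5, 14.9 and 0 CPM in S. The epithelial sum was 312, 229.5, 268 and 483 CPM in BV and 50.1, 583, 152 and 340.3 CPM in S, where LE of pregnant gilts held 2821 to 3143 CPM. Leukocyte markers ranged from 456 to 1164 CPM in BV and from 877 to 1707 CPM in S. No gene was called among 13 leukocyte markers (median fold change -0.35), 4 lymphatic markers (-0.45), 2 red cell markers (1.69) or the 1 Schwann cell marker tested. The part that these other cells and the library of gilt P139 have in the results below was not tested.

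**Figure D1:**
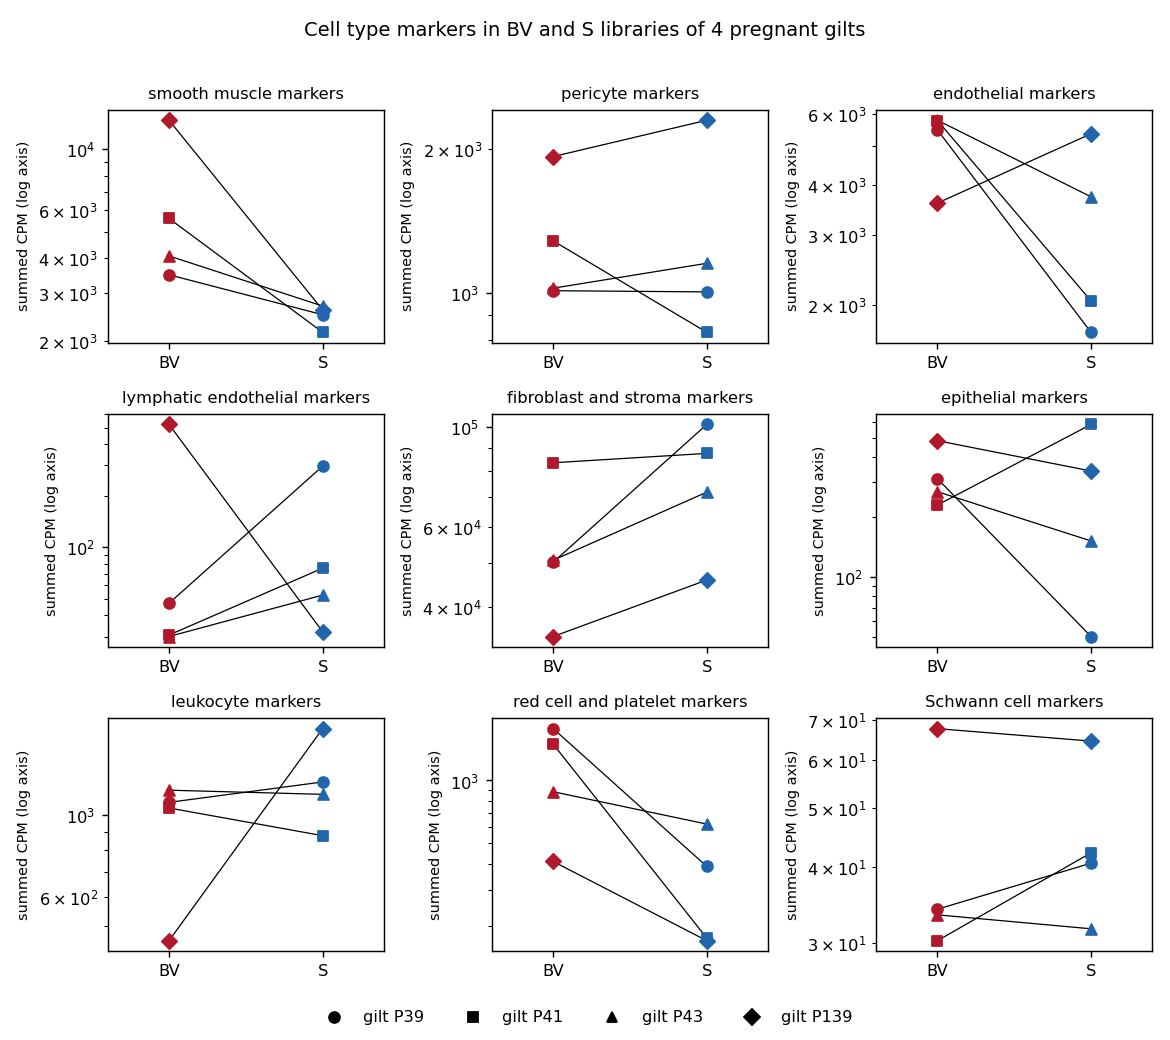
Summed CPM (log axis, 1 panel for each of 9 marker lists) in the BV and S libraries of pregnant gilts, with a line joining the libraries of a gilt and the symbol giving the gilt. The smooth muscle sum is higher in BV of all 4 gilts, whereas the endothelial sum of gilt P139 (diamond) is 3603 CPM in BV and 5369 CPM in S, against the direction of the other gilts.

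At a false discovery rate of 1% a single gene, TNC, was higher in BV (0.00821% of the genes tested) and none was higher in S (0.0%), by the quasi-likelihood F test of edgeR with the gilt as a block. At 5% there were 92 genes higher in BV and 92 higher in S, each 0.755% of the genes tested, and 1999 genes had an unadjusted p below 0.05, 1023 of them higher in BV and 976 in S. The 5% level is used below, and a gene is said to be higher or lower in BV where it was called at that level, unless the values of single gilts are compared. Counts of calls in the lists below stand beside 0.755% of all genes tested in each direction. Among the 92 genes higher in BV, 76 had all 4 BV libraries above all 4 S libraries, where 4.13% of all genes tested did, and 68 of the 92 higher in S had every S library above every BV library, where 4.22% did. Of the genes called, 11 higher in BV and 20 higher in S are listed for 1 compartment alone and entered the test only through that listing. The direction was the same in all 4 gilts for 90 and for 92 genes. The exceptions, CNTN1 and COL8A1, were seen almost only in BV of gilt P139. Without gilt P39 or without gilt P43 no gene passed 5%, the smallest adjusted p being 0.0656 and 0.086, and without gilt P41 there were 53 and 29 genes, whereas without gilt P139 there were 387 (3.18%) and 317 (2.6%). DESeq2 called 379 (3.11%) and 280 (2.3%) with all gilts. In each of these fits the 92 and 92 genes kept their direction, and 89 and 90 of them were called without gilt P139. The fits share libraries with the test that called the genes, so the kept direction is not independent support.

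TNC, at chr1:255533235-255630381 of Sscrofa11.1, encodes tenascin C, a matrix glycoprotein of vessel walls under remodelling. Its level was 30.2, 52.9, 25.7 and 94.5 CPM in BV and 1.1, 3.88, 1.99 and 5.62 CPM in S. All BV values lay far above the S values, and the fold change of 4.00 ± 0.23 had an adjusted p of 0.00925. The authors' filter lists TNC for BV but not for S, so the filter itself separates the compartments for this gene. In LE of the same stage its mean was 2.08 CPM.

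Smooth muscle genes were the group with the largest difference. Of the 20 smooth muscle markers, all of them tested, 5 were higher in BV, beside 0.755% of all genes, and none was lower. The median fold change of the list was 2.06, beside -0.01 for all genes tested, all 20 values were positive, and 13 genes had no overlap between BV and S. All 4 BV libraries were above all 4 S libraries in 4.13% of all genes tested. The genes called were CNN1, TAGLN, TPM2, DES and PLN. CNN1 encodes calponin, an actin-binding protein that restrains the myosin motor, and stood at 13.1, 35.5, 16.8 and 176 CPM in BV and 1.1, 0.969, 1.99 and 3.6 CPM in S. It was higher in every gilt, by a fold change of 4.63 ± 0.46 (adjusted p = 0.0216), and by 3.90 without gilt P139, whose BV level of 176 CPM was the highest by a wide margin. TAGLN, or transgelin, crosslinks actin in smooth muscle and was at 147, 309.7, 188 and 737 CPM in BV and 40.3, 35.5, 48.5 and 43.6 CPM in S, a fold change of 2.76 ± 0.40 with an adjusted p of 0.037. TPM2, a tropomyosin, was at 145, 225, 164 and 481 CPM in BV and 40.3, 33.9, 60.1 and 66.1 CPM in S, with 2.23 ± 0.27 and an adjusted p of 0.0268. DES, the muscle intermediate filament desmin, was at 68.4, 35.1, 33.2 and 54.3 CPM in BV and 13.6, 13.2, 12.6 and 7.42 CPM in S, with 2.0 ± 0.29 and an adjusted p of 0.037. BV and S values of these genes did not overlap. PLN, phospholamban, which brakes the calcium pump of the sarcoplasmic reticulum, was at 48.8, 21.4, 18.2 and 59.7 CPM in BV and 16.5, 3.23, 8.3 and 11.7 CPM in S (1.91 ± 0.29, adjusted p = 0.0384), and its lowest BV value of 18.2 CPM lay just above its highest S value of 16.5 CPM.

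ACTA2 and MYH11, defining markers with high counts, were not called, and their BV values varied widely between gilts. ACTA2, smooth muscle actin, was at 109.9, 808, 386 and 2352 CPM in BV and 71.8, 37.5, 72.4 and 93 CPM in S, a fold change of 3.10 ± 0.73 (adjusted p = 0.0936). MYH11, the smooth muscle myosin heavy chain, was at 353, 619, 376 and 2625 CPM in BV and 145, 92.4, 142 and 119 CPM in S, with 2.43 ± 0.55 and an adjusted p of 0.0848. In both genes all BV values exceeded all S values, and BV of gilt P139 was the highest. MYL9, the regulatory myosin light chain, just missed the threshold (2.46 ± 0.43, adjusted p = 0.0502), as did TPM1 (1.09 ± 0.20, adjusted p = 0.0532) and ACTG2 (4.60 ± 0.89, adjusted p = 0.0591). Without gilt P139 the list had 10 of 20 genes higher in BV and a median of 1.66, where 3.18% of all genes were called, among them MYH11 at 1.80 with an adjusted p of 0.0222. SMTN (0.27 ± 0.28) and SYNPO2 (0.09 ± 0.21), cytoskeletal genes named for smooth muscle and synapse, had overlapping levels in both compartments. KCNMB1, a subunit of the calcium-activated potassium channel of vascular muscle, was read almost only in BV of gilt P139, at 0.364, 0, 0 and 13.7 CPM in BV and 0, 0.323, 0 and 0.449 CPM in S.

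**Figure D2:**
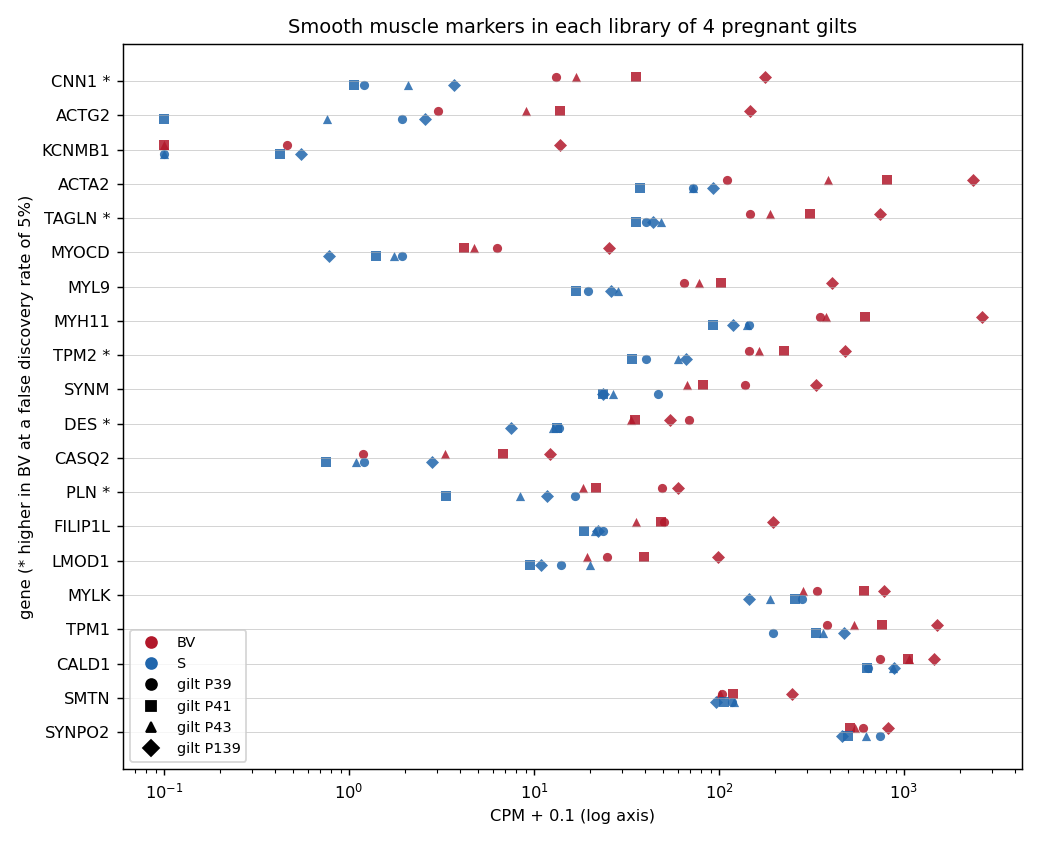
CPM + 0.1 (log axis) of the 20 smooth muscle markers in each BV and S library of the pregnant gilts, ordered by fold change, with the symbol giving the gilt and an asterisk marking the 5 genes higher in BV at a false discovery rate of 5%. BV of gilt P139 is the highest value for most genes, and the bottom genes, SMTN and SYNPO2, have BV and S values that overlap.

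CArG boxes were searched for, on both strands, in the 250 bases before the annotated start of each gene, because they are the element known from contractile genes. Such a box was present in 142 of 11446 protein-coding genes tested (1.24%), in 3 of the 20 smooth muscle markers (15.0%) and in 7 of 34 genes for contractile filaments and kinases (20.6%). Among genes higher in BV 2 of 91 had one (2.2%), TAGLN and VCL, and among genes higher in S 0 of 88. A stretch of each with the box in capitals is shown for these called genes and for MYL9, read from Sscrofa11.1 on the strand of the gene. The stretch of TAGLN lies at chr9:44561545-44561594, that of MYL9 at chr17:39788075-39788124 and that of VCL at chr14:76699917-76699966, all on the plus strand.
TAGLN: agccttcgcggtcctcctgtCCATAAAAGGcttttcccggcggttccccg
MYL9: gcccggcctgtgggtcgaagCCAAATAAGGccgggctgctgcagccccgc
VCL: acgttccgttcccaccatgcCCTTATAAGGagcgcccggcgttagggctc
The boxes printed end 182 bases before the start of TAGLN, 61 bases before that of MYL9 and 197 bases before that of VCL. A match of letters does not show binding, and a promoter without one may hold a box elsewhere.

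The wider contractile machinery followed the smooth muscle markers less closely. Of 34 tested genes for contractile filaments and kinases, 5 were higher in BV and none was lower, with a median of 0.75 and 32 positive values. VCL, vinculin, which ties actin to focal adhesions, was the call outside the marker list, at 279.5, 533, 346 and 599 CPM in BV and 164, 166, 198 and 216 CPM in S, a fold change of 1.18 ± 0.20 with an adjusted p of 0.0431. The actins ACTB and ACTG1, common to all cells, had fold changes of 0.43 ± 0.14 and 0.38 ± 0.18. Filamin C (FLNC), a muscle isoform, was at 32.8, 51, 35 and 77.9 CPM in BV and 73.7, 71.7, 66.1 and 20.2 CPM in S without a call, and its direction differed between gilt P139 and the others.

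Genes that set vascular tone gave 4 calls of 40, all higher in BV, with a median of 0.75. PDE3A, a phosphodiesterase that breaks down cyclic AMP in vascular muscle, was at 126, 83.5, 122 and 154 CPM in BV and 26, 29.1, 31.5 and 42 CPM in S, with every BV value above every S value. Its fold change of 1.90 ± 0.16 had an adjusted p of 0.0196. PRKG1, the kinase through which nitric oxide and cyclic GMP relax the vessel, was at 70.2, 40.6, 39.2 and 138.8 CPM in BV and 19.4, 7.1, 18.3 and 45.4 CPM in S (1.74 ± 0.24, adjusted p = 0.0339), higher in each gilt although the ranges overlapped. TRPC6, a cation channel opened by stretch and diacylglycerol, was at 51, 40.6, 32.5 and 77.1 CPM in BV and 11, 10, 19.2 and 17.3 CPM in S (1.78 ± 0.28, adjusted p = 0.0392). The fourth call was PLN. RYR3, a calcium release channel, was at 16.4, 49.9, 12.8 and 10.4 CPM in BV and 3.67, 0.323, 0.996 and 0 CPM in S without passing the test (4.21 ± 0.79, adjusted p = 0.0561). HTR2B, a serotonin receptor, was read only in BV of gilt P139, at 21.1 CPM, and had 0 counts in the other 7 libraries. KCNMA1, the pore of the calcium-activated potassium channel, leaned to S, at 97.2, 153, 163 and 126 CPM in BV and 350.4, 336, 366 and 71.2 CPM in S, in 3 of the 4 gilts (-0.87 ± 0.41, adjusted p = 0.368), and RGS5, a regulator of G proteins and pericyte marker, was lower in BV of all gilts, at 47.7, 109, 98.1 and 703 CPM in BV and 193, 202, 213 and 1065 CPM in S, also without a call (-1.14 ± 0.24, adjusted p = 0.0688).

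Among 29 genes for serum response factor, its partners and other muscle transcription factors, 2 were higher in BV, both of the LIM-only family that binds actin and nuclear factors in muscle. FHL2 was at 150, 102, 74.9 and 88.7 CPM in BV and 16.1, 11.6, 19.9 and 20.4 CPM in S (2.58 ± 0.27, adjusted p = 0.0232) and FHL1 at 221, 195, 211 and 459 CPM in BV and 55, 46.5, 62.1 and 46.3 CPM in S (2.28 ± 0.27, adjusted p = 0.0249), without overlap in either. MYOCD, myocardin itself, was at 6.19, 4.07, 4.64 and 25.3 CPM in BV and 1.83, 1.29, 1.66 and 0.674 CPM in S, higher in all BV libraries but not called (2.58 ± 0.70, adjusted p = 0.128), whereas serum response factor, SRF, had a fold change of 0.21 ± 0.23. KLF4 and KLF5, factors that oppose the contractile state, had -0.45 ± 0.15 and -0.86 ± 0.40, and TBX2 and TBX3 had -0.50 ± 0.22 and -0.91 ± 0.27, none of them called.

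Endothelial genes leaned to BV without a single call. Of 25 endothelial markers, all tested, 24 had a positive fold change, with a median of 0.74, but none passed 5%. Among them 2 had all BV values above all S values, where 4.13% of all genes tested did. PECAM1, the adhesion molecule of endothelial junctions, came nearest, at 380.3, 402, 356 and 330.3 CPM in BV and 158, 122, 153 and 245 CPM in S (1.16 ± 0.22, adjusted p = 0.056). VWF, von Willebrand factor, was at 1223, 1397, 1423 and 559 CPM in BV and 272, 365, 867 and 816 CPM in S (1.09 ± 0.46, adjusted p = 0.304). Its level was higher in BV of gilts P39, P41 and P43 and lower in BV of gilt P139, as was KDR, the main VEGF receptor, at 356, 299, 351 and 216 CPM in BV and 195, 164, 236 and 836 CPM in S. Without gilt P139, 17 of the 25 markers were higher in BV, with a median of 1.11, where 3.18% of all genes were called, among them VWF at 1.61 (adjusted p = 0.0256) and ENG, endoglin, at 1.45 (adjusted p = 0.0189). The 8 venous genes were all positive with a median of 0.99 and no call. ACKR1, the chemokine receptor of venules, was at 79, 108, 116 and 22.4 CPM in BV and 4.4, 11.6, 65.4 and 5.39 CPM in S (2.44 ± 0.52, adjusted p = 0.0742), and SELP, P-selectin of the same vessels, at 136, 154, 113 and 24.4 CPM in BV and 10.6, 26.8, 59.8 and 26.1 CPM in S (1.72 ± 0.59, adjusted p = 0.216), both lowest in BV of gilt P139 among the BV libraries. Without that animal 5 of the 8 were higher in BV.

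Of 14 arterial genes 1 was higher in BV, HEY2, a repressor downstream of Notch that is needed for arterial identity, at 30.9, 25.9, 41 and 110.2 CPM in BV and 9.9, 13.9, 19.2 and 38.9 CPM in S (1.28 ± 0.19, adjusted p = 0.037). GJA5, the arterial gap junction protein connexin 40, was at 8.73, 6.65, 7.85 and 251 CPM in BV and 11, 4.52, 7.63 and 30.6 CPM in S, and BMX, a kinase of arterial endothelium, at 1.46, 0.739, 1.43 and 32.3 CPM in BV and 0, 0.323, 0.996 and 4.49 CPM in S, both high in BV of gilt P139 and low elsewhere. SEMA3G, an arterial semaphorin, was at 6.55, 7.39, 13.6 and 179.9 CPM in BV and 17.2, 17.4, 27.9 and 70.1 CPM in S, with its 2 highest values in both captures of that gilt. HEY2 was also the single call of 22 Notch pathway genes. JAG1, a Notch ligand of the vessel wall, was at 237, 336, 299 and 569.8 CPM in BV and 109, 108, 217 and 262 CPM in S (1.09 ± 0.20, adjusted p = 0.0555) and NOTCH3, the receptor of mural cells, at 377, 389.5, 208 and 459 CPM in BV and 103, 108, 178 and 296 CPM in S (1.14 ± 0.31, adjusted p = 0.13). Both were higher in BV of each gilt without passing the test. DLL4, the ligand of sprouting endothelium, was at 24.8, 7.02, 27.1 and 47.2 CPM in BV and 27.5, 25.2, 22.9 and 90.3 CPM in S.

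In the VEGF and angiopoietin system of 18 genes the ligand VEGFA was lower in BV. VEGFA, which drives vessel growth and leakage, was at 8.73, 15.2, 18.9 and 16.2 CPM in BV and 37, 36.2, 50.1 and 34.2 CPM in S, a fold change of -1.44 ± 0.21 with an adjusted p of 0.0374, and no BV value reached the S values. LE held a mean of 159 CPM of it. Its receptors FLT1 and KDR and the coreceptor NRP1 had fold changes of 0.58 ± 0.46, 0.15 ± 0.49 and 0.62 ± 0.34, and the angiopoietins ANGPT1 and ANGPT2, ligands of TEK, had 1.36 ± 0.26 (adjusted p = 0.0591) and 0.98 ± 0.18 (adjusted p = 0.056). Platelet-derived growth factor gave 1 call of 6 genes, the receptor PDGFRA of fibroblasts, which was lower in BV at 539.8, 904, 1105 and 509.8 CPM in BV and 2206, 2106, 1933 and 1465 CPM in S (-1.39 ± 0.21, adjusted p = 0.0384). PDGFRB, the receptor of pericytes and fibroblasts, had overlapping levels, at 322, 409.5, 395 and 258 CPM in BV and 429.6, 301, 449 and 407 CPM in S (-0.20 ± 0.20, adjusted p = 0.686). The 9 tested pericyte markers had no call and a median of -0.24, with MCAM at 1.37 ± 0.24 (adjusted p = 0.0513) and KCNJ8, a potassium channel of pericytes, at -0.80 ± 0.29.

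The calls in the lists of structural matrix genes were all higher in BV, and those in the list of matrix proteases were lower. COL13A1, a membrane collagen outside these lists, was higher in S. Of 28 genes for interstitial collagens and proteoglycans 4 were higher in BV, TNC, COL8A1, COL12A1 and BGN, and none was lower, but the median was -0.12. COL12A1, a collagen that links fibrils, was at 2470.3, 1178, 1244 and 1256 CPM in BV and 708, 326, 514 and 379 CPM in S (1.67 ± 0.15, adjusted p = 0.0196). BGN, the small proteoglycan biglycan, was at 506, 500.4, 346 and 491 CPM in BV and 89.8, 150.2, 179.6 and 196 CPM in S (1.62 ± 0.26, adjusted p = 0.0391). BV and S did not overlap in either gene. COL8A1, a short-chain collagen made by migrating smooth muscle, passed the test with 3.97 ± 0.47 and an adjusted p of 0.0394 but was at 0, 0, 2.5 and 124 CPM in BV and 0, 0, 0.332 and 6.74 CPM in S, and without gilt P139 its adjusted p was 0.506. PRELP (2.10 ± 0.38, adjusted p = 0.0521), FMOD (2.45 ± 0.50, adjusted p = 0.0634) and ASPN (1.73 ± 0.32, adjusted p = 0.0558), leucine-rich proteoglycans, leaned to BV. The fibrillar collagens that make up most stromal matrix had negative values without a call, with COL1A1 at -0.33 ± 0.24 and COL3A1 at -0.64 ± 0.18, the latter 19939, 32176, 19454 and 10559 CPM in BV and 42505, 40017, 29681 and 15255 CPM in S.

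Elastic fibre genes gave 1 call of 21, EFEMP1, or fibulin 3, at 212, 233, 152 and 218 CPM in BV and 63, 32.3, 30.5 and 15.5 CPM in S (2.66 ± 0.33, adjusted p = 0.0276). ELN, elastin, was at 223, 315, 106 and 397 CPM in BV and 73.3, 49.1, 63.7 and 47.9 CPM in S, without overlap but not called (2.03 ± 0.39, adjusted p = 0.0591), and LOX, which crosslinks elastin and collagen, was at 1.23 ± 0.24 (adjusted p = 0.0591). None of 22 basement membrane genes was called, with LAMA5 at 1.29 ± 0.29 (adjusted p = 0.0837), LAMA4 at 0.97 ± 0.22 (adjusted p = 0.0906) and COL4A1 at 0.37 ± 0.24. LAMA2, the laminin of interstitial cells, leaned to S (-0.60 ± 0.16, adjusted p = 0.118), with no overlap. The 19 integrins had no call and a median of 0.32, led by ITGBL1 (1.93 ± 0.49) and the muscle integrin ITGA7 (1.13 ± 0.21, adjusted p = 0.056). Matrix proteases gave 2 calls of 24, both lower in BV. MMP2, gelatinase A, was at 891, 1216, 1348 and 625 CPM in BV and 2068, 2167, 2188 and 1317 CPM in S (-0.96 ± 0.14, adjusted p = 0.0377) and ADAM12, a membrane protease of mesenchyme, at 61.5, 93.1, 71.4 and 46.4 CPM in BV and 214, 169.5, 169 and 157 CPM in S (-1.41 ± 0.19, adjusted p = 0.0329). MMP14, which activates MMP2 on the cell surface, was at 299, 292, 344 and 237 CPM in BV and 609, 572, 571 and 335 CPM in S, just short of the threshold (-0.81 ± 0.14, adjusted p = 0.0511). MMP2 and PDGFRA were also the 2 calls among 18 fibroblast markers, both lower in BV, where LUM, lumican, came near (-1.14 ± 0.22, adjusted p = 0.0591).

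Among 35 Wnt pathway genes 2 were higher and 2 were lower in BV. SFRP4, a secreted antagonist of Wnt, was at 29.1, 54.3, 23.6 and 60.5 CPM in BV and 0.733, 2.91, 6.64 and 2.92 CPM in S (3.69 ± 0.52, adjusted p = 0.036), and LRP5, a Wnt coreceptor, at 64.4, 89.4, 82.4 and 77.5 CPM in BV and 37.8, 37.1, 47.8 and 28.8 CPM in S (1.06 ± 0.17, adjusted p = 0.0411), each without overlap. DKK1, which blocks that coreceptor, was lower in BV, at 116, 123, 217 and 95.3 CPM in BV and 317, 291, 417 and 300.2 CPM in S (-1.32 ± 0.16, adjusted p = 0.0247), and so was the ligand WNT2, at 77.5, 140.1, 55 and 18.6 CPM in BV and 284, 254, 129 and 86.3 CPM in S (-1.52 ± 0.24, adjusted p = 0.0391). Among the genes called, the secreted inhibitors SFRP4 and DKK1 thus differed in opposite directions, SFRP4 higher in BV and DKK1 higher in S. WNT5A, a ligand of the noncanonical pathway, was at 93.2, 109, 117 and 72.1 CPM in BV and 232, 196, 204 and 275 CPM in S, short of a call (-1.22 ± 0.21, adjusted p = 0.0511). Of 36 TGF-beta and BMP genes BMPER, a secreted modulator of BMP in vessels, was the single call and was lower in BV, at 17.5, 11.5, 49.6 and 43.5 CPM in BV and 39.2, 36.2, 95.6 and 135 CPM in S (-1.34 ± 0.18, adjusted p = 0.0329). None of 15 FGF genes was called. FGFR1 was at 1.47 ± 0.27 (adjusted p = 0.0555) and FGF10, a stromal ligand for epithelium, at -1.61 ± 0.33 (adjusted p = 0.0663).

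Steroid and retinoid lists held 1 call each, both higher in BV. PGR, the progesterone receptor, was at 127.8, 128.2, 116 and 77.5 CPM in BV and 266, 183.7, 191 and 191 CPM in S, with every S value above every BV value and an adjusted p just over the threshold (-0.90 ± 0.16, adjusted p = 0.0548), and GREB1, a target and cofactor of estrogen receptor, was the only call of 17 steroid receptors and cofactors, higher in BV at 9.1, 3.7, 9.28 and 43.5 CPM in BV and 1.1, 0.969, 2.99 and 14.6 CPM in S (1.89 ± 0.33, adjusted p = 0.0485). Without gilt P139 the adjusted p of GREB1 was 0.0555. OSR2, a zinc finger factor of mesenchyme, was the 1 call of 25 HOX and uterine mesenchyme factors, lower in BV at 80.1, 86.8, 87.4 and 51 CPM in BV and 203, 146, 148 and 133 CPM in S (-1.06 ± 0.17, adjusted p = 0.0391). Of the 25, 6 had S values all above BV, where 4.22% of all genes tested did, among them HOXA10 (-0.83 ± 0.16, adjusted p = 0.0591), HOXA11 (-0.87 ± 0.20, adjusted p = 0.0877) and WT1 (-1.15 ± 0.26, adjusted p = 0.084). Of 16 retinoid genes ALDH1A3, an enzyme that makes retinoic acid, was higher in BV at 79, 117, 66.4 and 48.5 CPM in BV and 4.76, 20.7, 16.6 and 11.7 CPM in S (2.56 ± 0.34, adjusted p = 0.0312). Of its relatives, which did not pass the test, ALDH1A1 was at 212, 229.5, 211 and 263 CPM in BV and 106, 179.9, 94.6 and 33.3 CPM in S, with all BV values above all S values (1.33 ± 0.40, adjusted p = 0.167), and ALDH1A2 leaned to S, at 146, 101, 182 and 68.4 CPM in BV and 348, 190.2, 252 and 212 CPM in S (-1.06 ± 0.20, adjusted p = 0.0591), and so did STRA6, the receptor that takes up retinol (-1.90 ± 0.37, adjusted p = 0.0591).

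Prostaglandin, chemokine and growth factor lists held 1 call each. PTGIS, prostacyclin synthase, whose product relaxes vessels, was higher in BV at 315, 480.5, 349 and 382 CPM in BV and 185, 178, 191 and 152 CPM in S (1.10 ± 0.16, adjusted p = 0.037), 1 of 12 prostaglandin genes, beside SLCO2A1, the prostaglandin carrier (2.0 ± 0.38, adjusted p = 0.0561). CCL19, a ligand of CCR7 that guides lymphocytes and dendritic cells, was higher in BV of each gilt, at 38.6, 32.1, 78.5 and 9.53 CPM in BV and 4.76, 1.94, 20.9 and 1.35 CPM in S (2.79 ± 0.35, adjusted p = 0.0276), 1 of 20 chemokine genes. CXCL10, induced by interferon, was at 8.01, 9.98, 94.2 and 5.39 CPM in BV and 59.4, 12.6, 126 and 606 CPM in S and was not called (-2.31 ± 1.08, adjusted p = 0.359). In the IGF system of 14 genes STC1, stanniocalcin, which acts on the IGF binding protein protease, was lower in BV at 2.18, 10.7, 1.07 and 4.14 CPM in BV and 5.87, 68.8, 28.2 and 53 CPM in S (-3.11 ± 0.44, adjusted p = 0.0364), and LE held 521 CPM. For STC1 the paper's comparison of pregnant with cyclic gilts gives a value in S but none in BV. STC1 is thus listed as detectable in S alone and entered the test through the compartment where it is high. NTN4, a netrin of basement membranes, was the call among 34 axon guidance and Eph genes and was higher in BV, at 23.7, 24.4, 36.8 and 74.6 CPM in BV and 11.4, 12.3, 11.9 and 28.3 CPM in S (1.27 ± 0.19, adjusted p = 0.037).

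Interferon-stimulated genes, which respond to the interferons that the pig conceptus secretes, had no call among 41 tested and a median of -0.58, with 40 of 41 below 0. Without gilt P139 the median was -0.09, and S of that gilt held the highest level of PARP14, an example, at 48.8, 86.5, 168 and 43.9 CPM in BV and 60.1, 104, 189.5 and 398 CPM in S. In cyclic gilts fitted alone the median was -0.615, and 13 of the 41 were called higher in S, where 3.74% of all genes were. The lean to S was thus not particular to pregnant gilts. The 29 cell cycle genes had no call and a median of 0.42, with MKI67, a proliferation marker, at 22.2, 28.1, 27.5 and 74.6 CPM in BV and 13.9, 4.52, 16.9 and 31.9 CPM in S (1.24 ± 0.33, adjusted p = 0.124).

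**Figure D3:**
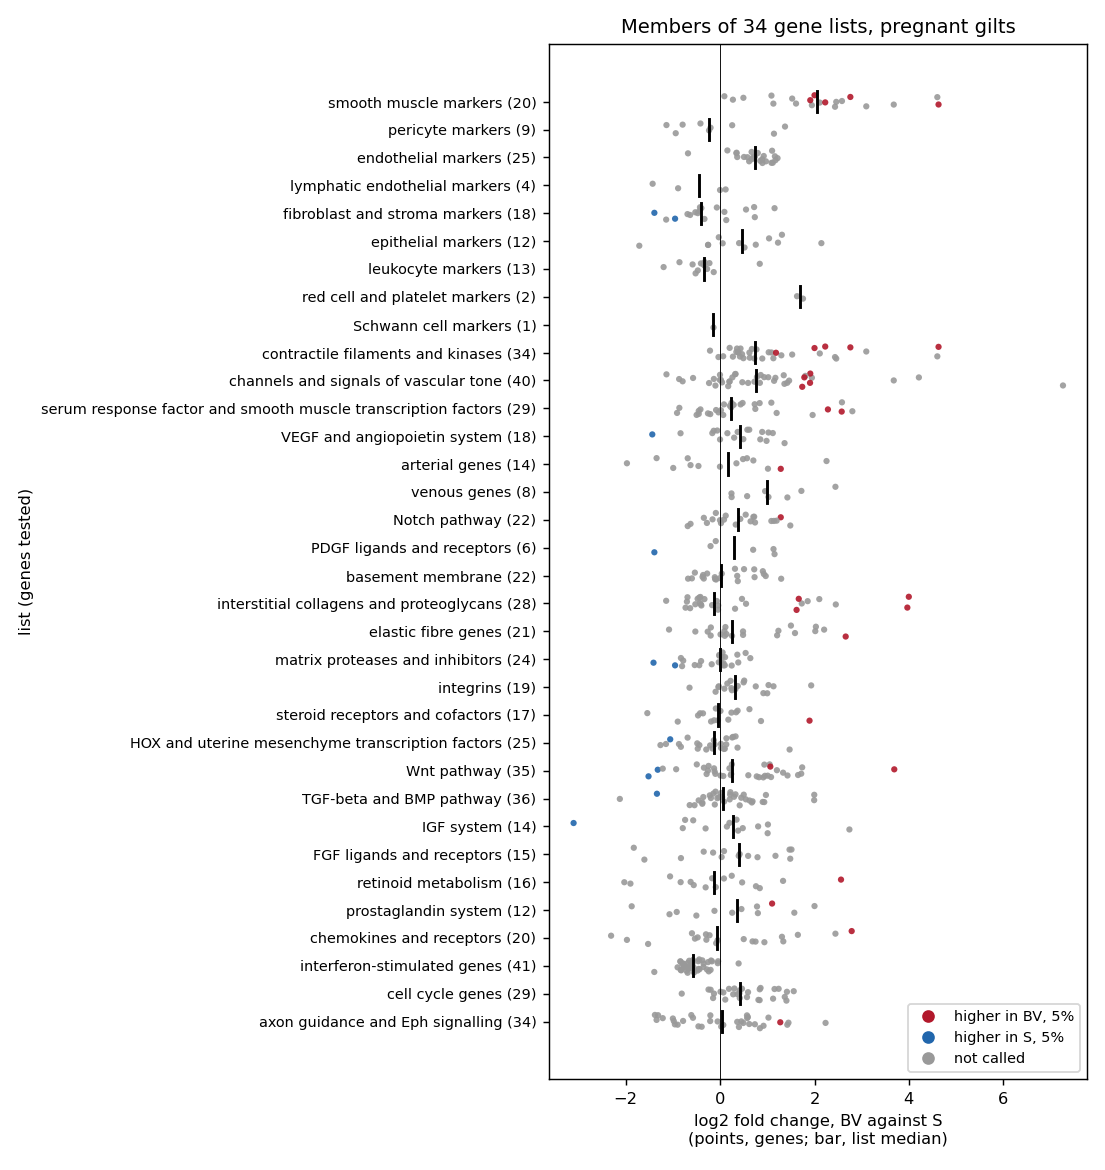
Log2 fold change of BV against S in pregnant gilts for every tested member of 34 gene lists, 1 point for each gene, with the number tested in brackets, coloured points for genes called at a false discovery rate of 5% and a bar at the median of the list. Smooth muscle markers have the highest median, 2.06, and interferon-stimulated genes the lowest, -0.58.

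Beyond the lists, the genes with the largest fold changes in BV included further parts of the actin cytoskeleton and cell surface proteins. PRUNE2, a large scaffold protein found in muscle and nerve, was at 8.37, 53.6, 36.8 and 148 CPM in BV and 0, 4.52, 2.65 and 1.8 CPM in S (4.66 ± 0.55, adjusted p = 0.0247). NEXN, the actin-binding protein nexilin of muscle, was at 24.8, 49.5, 30.7 and 169 CPM in BV and 5.5, 6.14, 5.64 and 4.72 CPM in S (3.25 ± 0.51, adjusted p = 0.0391). In both genes BV of gilt P139 was the highest value and S never passed 6.14 CPM. CDH3, P-cadherin, a cell adhesion protein better known from epithelium, was at 14.6, 29.2, 25.7 and 27.4 CPM in BV and 1.47, 3.88, 4.32 and 4.94 CPM in S (2.74 ± 0.25, adjusted p = 0.0196), with a mean of 1.41 CPM in LE and 0.284 CPM in GE, so its BV level stood above both epithelia. OLFML2B, a secreted olfactomedin protein, was at 32.8, 55.4, 26.8 and 41.9 CPM in BV and 6.96, 4.52, 10.3 and 4.04 CPM in S (2.61 ± 0.40, adjusted p = 0.0384). L1CAM, an adhesion molecule of nerve and vessel, was at 36.8, 35.9, 36.4 and 20.7 CPM in BV and 4.03, 3.88, 16.9 and 4.27 CPM in S (2.35 ± 0.39, adjusted p = 0.0439). ART4, which carries the Dombrock blood group, was at 81.5, 34, 36 and 29.4 CPM in BV and 8.43, 1.29, 7.3 and 0.225 CPM in S (3.68 ± 0.55, adjusted p = 0.0377) and, like TNC, is listed as detectable in BV alone. None of these 6 genes overlapped between BV and S.

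Genes higher in S are given in 2 sets, split at an excess of 4-fold in LE or GE over both BV and S. To the first set belong ADCYAP1R1, the receptor of the neuropeptide PACAP, at 1.09, 1.85, 7.14 and 10.8 CPM in BV and 12.8, 20.3, 30.9 and 65.6 CPM in S (-2.75 ± 0.29, adjusted p = 0.0232), and COL13A1, a membrane collagen, at 3.64, 5.54, 15 and 12 CPM in BV and 20.2, 59.1, 101 and 50.8 CPM in S (-2.66 ± 0.25, adjusted p = 0.0196). NTNG1, a netrin anchored in the membrane, was at 45.9, 51.4, 64.6 and 45.6 CPM in BV and 259.9, 194, 187 and 158 CPM in S (-1.93 ± 0.18, adjusted p = 0.0196). All S values of these 3 genes lay above all BV values, though NTNG1 also reached 201 CPM in LE. CPAMD8, a secreted protein of the complement C3 family, was at 11.3, 14.8, 22.8 and 9.95 CPM in BV and 94.6, 63.9, 65.4 and 27 CPM in S (-2.03 ± 0.30, adjusted p = 0.037). ADGRG2, an adhesion receptor known from the epididymis, was at 3.64, 36.2, 30.3 and 14.5 CPM in BV and 59.4, 159.5, 123 and 40.2 CPM in S (-2.28 ± 0.36, adjusted p = 0.0392), and NELL1, a secreted growth factor of bone, at 1.09, 7.02, 10.7 and 9.95 CPM in BV and 15.8, 28.7, 35.9 and 31.9 CPM in S (-2.10 ± 0.33, adjusted p = 0.0391). P2RY1, a receptor for ADP, was at 2.18, 9.61, 8.92 and 7.87 CPM in BV and 18, 27.8, 27.2 and 41.4 CPM in S (-2.05 ± 0.29, adjusted p = 0.0364). These 4 genes had no overlap either. UNC5D, a netrin receptor listed as detectable in S alone and so tested through S, was at 1.09, 1.48, 6.78 and 5.8 CPM in BV and 25.7, 7.1, 51.8 and 113 CPM in S (-3.55 ± 0.38, adjusted p = 0.0232).

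To the second set belong genes that LE of pregnant gilts held at higher levels than S. Of the 92 genes higher in S, 21 had such an excess in pregnant gilts (22.8%), as had 5.08% of all genes tested and 1 of the 92 higher in BV. NOS1, neuronal nitric oxide synthase, was at 1.09, 34, 1.07 and 12 CPM in BV and 20.2, 129, 72.7 and 242 CPM in S (-3.71 ± 0.59, adjusted p = 0.0391), against 2073 CPM in LE. UPTI, a plasmin and trypsin inhibitor of the pig uterus, was at 0.364, 47.7, 0.714 and 11.6 CPM in BV and 7.33, 216, 49.1 and 185 CPM in S (-3.54 ± 0.52, adjusted p = 0.037), against 1912 CPM in LE. Both were highest in S of gilts P41 and P139, the S libraries with the largest epithelial sums, 583 and 340 CPM. TRPV6, a calcium channel of absorbing epithelia, was at 0, 24.8, 1.07 and 4.97 CPM in BV and 13.2, 122, 93.9 and 131 CPM in S (-4.15 ± 0.66, adjusted p = 0.0396), with 1303 CPM in LE, and PLS1, a plastin of microvilli, was at 9.46, 44.7, 8.56 and 25.7 CPM in BV and 28.2, 214, 43.8 and 174 CPM in S (-2.27 ± 0.21, adjusted p = 0.0196), with 1761 CPM in LE. RAB27B, a small GTPase of secretion, was at 2.18, 19.2, 6.78 and 16.2 CPM in BV and 22.4, 95.3, 38.5 and 82 CPM in S (-2.53 ± 0.22, adjusted p = 0.0196), and STEAP2, a metalloreductase, at 0, 4.07, 0.357 and 1.66 CPM in BV and 4.4, 27.8, 18.9 and 50.3 CPM in S (-4.12 ± 0.53, adjusted p = 0.0276), with 442 and 409 CPM in LE. The epithelial markers themselves did not follow these genes. Of 12 tested none was called, the median was 0.46, and EPCAM, the epithelial adhesion molecule, was at 56.4, 20.7, 31.4 and 89.9 CPM in BV and 4.03, 74.6, 8.63 and 34.8 CPM in S, higher in BV of 3 gilts. S100A9, a calcium-binding protein of myeloid cells and, in pregnant pig endometrium, of LE (390.5 CPM), was at 1.46, 1.11, 0 and 2.07 CPM in BV and 15, 12.3, 7.97 and 91.9 CPM in S (-4.46 ± 0.50, adjusted p = 0.0244), and its S level of gilt P139 was the highest. SRGAP3, a regulator of Rac, was at 6.19, 9.98, 10.3 and 8.7 CPM in BV and 16.1, 42.3, 55.1 and 34.4 CPM in S (-1.99 ± 0.22, adjusted p = 0.0244), with 233 CPM in LE. TRPV6, STEAP2 and S100A9 are listed as detectable in S alone, so they entered the test through the compartment where they are high. The part of epithelial RNA in these differences was not tested.

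**Figure D4:**
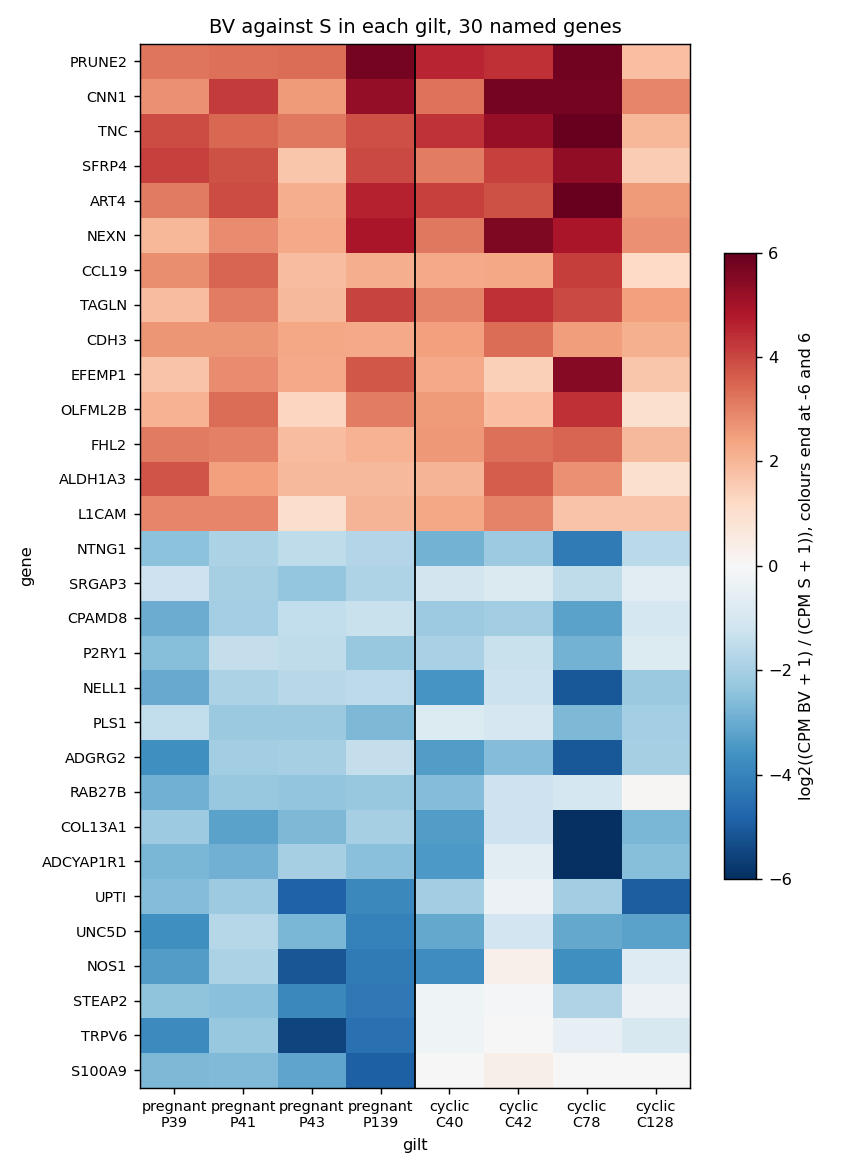
Log2 of (CPM in BV + 1) over (CPM in S + 1) within each gilt for the 30 named genes, red where BV is higher and blue where S is higher, with pregnant gilts left and cyclic gilts right of the line. The rule for these genes fixed 1 direction in all pregnant gilts, so the pregnant columns show how the size varies, with PRUNE2 and NEXN largest in P139, and in the cyclic columns STEAP2, TRPV6 and S100A9 are pale in most gilts.

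More genes were called between BV and S in cyclic gilts. Fitted alone in the same way, their 8 libraries had 734 genes higher in BV (6.02%) and 456 higher in S (3.74%) at 5%. Of the 92 genes higher in BV of pregnant gilts, 88 were called in the same direction in cyclic gilts (95.7%) and all 92 had the same sign, and of the 92 higher in S 61 were called (66.3%) and 87 had the same sign. Seen from the other side, 88 of 734 cyclic calls in BV and 61 of 456 in S (13.4%) were called in pregnant gilts. The smooth muscle list shows the size of the contrast. In cyclic gilts, 18 of its 20 genes were higher in BV, with a median of 3.35, and the summed level in BV was 11088 to 30835 CPM, against 3484 to 12779 CPM in BV of pregnant gilts, with only gilt P139 reaching the cyclic range. In S the sums were 2586 to 3657 CPM in cyclic and 2147 to 2678 CPM in pregnant gilts.

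Whether the difference between BV and S itself differed between pregnant and cyclic gilts was tested as an interaction over all 16 libraries. No gene passed 1% or 5% (0.0%) by the quasi-likelihood test of edgeR, the smallest adjusted p being 0.337, with 676 genes at an unadjusted p below 0.05, whereas DESeq2 called 6 at 1% and 11 at 5%, all with a lower BV over S ratio in pregnant gilts. DMD, dystrophin, which ties the muscle cytoskeleton to the matrix, had the smallest p in both tests. It was at 71.3, 88, 93.8 and 403 CPM in BV and 27.5, 27.1, 36.2 and 79.5 CPM in S and higher in BV of pregnant gilts (1.71 ± 0.20, adjusted p = 0.0247), and the fold change in cyclic gilts was 3.53, a difference of -1.80 in DESeq2 (adjusted p = 9.06e-06) that edgeR did not call (adjusted p = 0.337). The other genes that DESeq2 called at 5% included PTCH1, the receptor of hedgehog ligands, with -0.16 in pregnant and 1.20 in cyclic gilts, CSRP2, a LIM protein of smooth muscle, with -0.45 and 1.24, TTLL7, a tubulin polyglutamylase, with 1.63 and 4.21, and SERPINB7, a serine protease inhibitor, with -3.08 and 1.604. The cyclic value of SERPINB7 rests on few counts, with means of 1.21 CPM in BV and 0.424 CPM in S, so it does not show a reversal. Genes higher in S of pregnant gilts but not called in cyclic gilts included S100A9, TRPV6 and STEAP2, whose mean levels in BV and S of cyclic gilts were at most 1.78 CPM. For these genes the difference between the groups did not pass the test of edgeR either, with adjusted p of 0.855, 0.854 and 0.875.

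**Figure D5:**
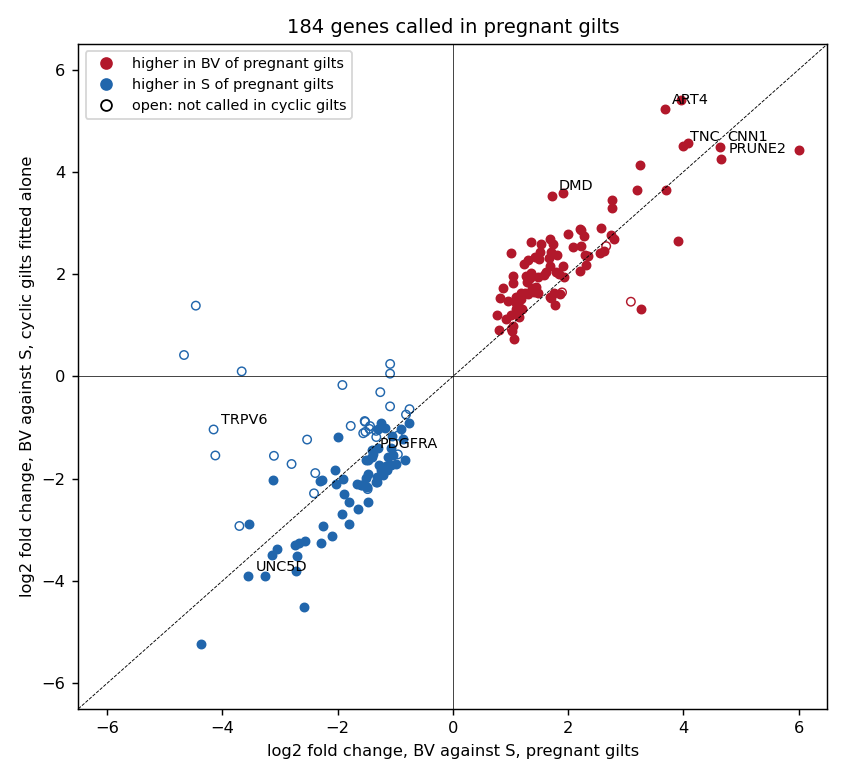
Log2 fold change of BV against S in pregnant gilts (x) and in cyclic gilts fitted alone (y) for the genes called in pregnant gilts, red for higher in BV and blue for higher in S, open where the gene was not called in cyclic gilts, with a dashed line at equal values. All 92 red points have a positive cyclic value, and 87 of 92 blue points a negative one.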

How the data were processed

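The endometrial compartments were laser captured, and their RNA, in picogram amounts, was made into libraries with the Ovation SoLo kit and sequenced as single reads. Reads were trimmed by the authors (Trim Galore) and aligned with Hisat2 against the Sscrofa11.1 assembly. They removed duplicates by molecular tag with NuGEN nudup and counted them per NCBI gene with QuasR, and the deposited tables of BV and of S hold these raw counts, with filtered tables of genes past a CPM limit not given in the sources used here. The authors' comparisons used the robust GLM of edgeR, with DESeq2 as a second method. The quasi-likelihood test of edgeR that is the main test here is a different one. Whether genes on opposite strands share counts was not settled here, and the complete tissue was not used.

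Here the counts as deposited were tested with edgeR 4.0.16 in R 4.3.3 (TMM factors, glmQLFit and glmQLFTest, the gilt as a block), with Benjamini-Hochberg adjustment over 12186 genes. Every adjusted p without another tool named comes from this test, and n is 4 gilts. The main fit was also run on simulated counts with known changes, drawn from the means and dispersions of these data without differences between gilts. Its outcome is not given here. The pairing rests on the animal number, and the deviations of the BV and S libraries of a gilt from their group means correlated with r of 0.177, 0.148, 0.325 and 0.0784 in gilts P39, P41, P43 and P139. Floors cover counting error only. The planned level was a false discovery rate of 1%, with 5% as an alternative, and applying the rule for named genes at 5% was decided after the counts of calls were seen. The rule took, in each direction, the 12 genes of largest fold change among those called, with 1 sign in all gilts, listed for both compartments and with a mean of at least 20 CPM in the higher one, then up to 4 such genes listed for 1 compartment alone (2 in BV and 4 in S), and beside them members of the 34 lists. Of 733 symbols in these lists 720 matched a counted gene and 616 were tested. The comparison and the lists were chosen with earlier results of these data known. CPM of BV and S were scaled over the 8 libraries, and marker sums, LE and GE levels over all 31. Cyclic gilts were fitted alone in the same way, as an addition made after seeing the data, and in a fit of 16 libraries for the interaction. Promoter sequence was read from the NCBI RefSeq genome and annotation of Sscrofa11.1. Not all stretches with a CArG box are reported here.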

Additional observations from a re-analysis of the deposited data

Results flagged for a closer look

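Among groups of 4 libraries, 9 of 78 examined had 1 library far from the others by Dixon's criterion at its 95% limit. That limit marks about 1 in 20 groups where groups are independent and values normally distributed. The groups here are CPM values from the same libraries, so the 9 cannot be set against that rate. Of the 9, 5 are BV of gilt P139. In BV of that gilt CNN1 was high at 176 CPM, with 13.1 to 35.5 CPM in the other BV libraries, and L1CAM was low at 20.7 CPM, with 35.9 to 36.8 CPM in the others. Its summed endothelial markers were low at 3603 CPM, with 5488 to 5803 CPM in the others, its summed lymphatic markers were high at 521 CPM, with 30.1 to 47.0 CPM, and its Schwann cell marker was high at 67.7 CPM, with 30.3 to 34.1 CPM. ART4 was high in BV of gilt P39, at 81.5 CPM against 29.4 to 36.0 CPM. In S, S100A9 was high in gilt P139, at 91.9 CPM against 7.97 to 15.0 CPM, L1CAM in gilt P43, at 16.9 CPM against 3.88 to 4.27 CPM, and the lymphatic sum in gilt P39, at 297 CPM against 32.0 to 75.3 CPM.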

How the results depend on the processing

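With 4 pairs and 2415216 to 4320928 counts a library, the number of calls moved widely with the processing while the direction did not. Those of the 92 and 92 genes that an alternative tested kept their sign in it, 81 and 72 of them in the test of genes listed for both compartments and 91 and 71 without epithelial genes. As the genes were called in these same libraries, a kept sign is not independent support. At 1% DESeq2 called 236 genes higher in BV and 182 higher in S, the robust likelihood ratio test of edgeR 371 and 276, the fit with no filter 115 and 85, the fit of 16 libraries 8 and 6, and the test of genes listed for both compartments 0 in BV. Without the gilt as a block there were 2 and 1 calls at 1% and 71 and 46 at 5%, which shows how the pairing moves the counts. Leaving out 1 gilt at a time gave 0 to 3 and 0 to 1 calls at 1% and 0 to 387 and 0 to 317 at 5%. At 5%, where there were 92 and 92, DESeq2 called 379 and 280 genes, the robust test 573 and 457, the fit with no filter 300 and 227, and the fit of 16 libraries 162 in BV. Leaving genes with the 4-fold excess in epithelium out of the test gave 196 and 150. For the interaction DESeq2 called 6 genes at 1% and 11 at 5%, and leaving out 1 gilt gave 0 to 1 at 5%. The 5 smooth muscle markers became 15 with DESeq2, 17 with the robust test, 3 without the block, 12 with no filter, 8 in the fit of 16 libraries, 9 without the epithelial genes and 0 to 10 on leaving out a gilt. Of 436 alternative values of the 30 named genes 340 kept their side of the 5% threshold, 96 lost it and 0 reversed. The rule for named genes asked for 1 sign in all gilts, so these fits of the same libraries could hardly reverse one. The alternatives at 5% and those on epithelial and ribosomal RNA genes were chosen after seeing the data. Fewer animals enter the fits without a gilt, and the cause of the other shifts was not tested.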

Other observations

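Called genes outside the lists and the rule, chosen after their values were seen, added to both sides of the comparison. In BV, THBS1, thrombospondin 1, a matrix protein that restrains vessel growth, was at 869.9, 670, 939 and 950.3 CPM in BV and 166, 192, 394 and 243 CPM in S (1.85 ± 0.20, adjusted p = 0.0244, edgeR), and NPNT, nephronectin, an integrin ligand, at 119, 144, 62.4 and 130.1 CPM in BV and 19.8, 25.8, 18.9 and 24.9 CPM in S (2.30 ± 0.19, adjusted p = 0.0196). IL33, an alarmin of vessel walls, was at 627, 292, 310.1 and 691 CPM in BV and 74.4, 62.3, 134 and 139.5 CPM in S (2.20 ± 0.29, adjusted p = 0.0312). None of these overlapped with S. AQP1, the water channel of endothelium, was at 340.3, 211, 252 and 259.8 CPM in BV and 192, 81.4, 146 and 125 CPM in S (1.01 ± 0.15, adjusted p = 0.037), and NOX4, an NADPH oxidase of vascular cells, at 65.2, 63.6, 57.4 and 94.1 CPM in BV and 28.2, 28.7, 23.9 and 55.5 CPM in S (1.09 ± 0.16, adjusted p = 0.037). RAMP1, which forms the receptor for the vasodilator CGRP, was at 8.01, 14.4, 8.92 and 14.1 CPM in BV and 0.367, 2.26, 2.32 and 1.8 CPM in S (2.76 ± 0.41, adjusted p = 0.037), and ANGPT4, an angiopoietin, at 29.5, 22.9, 7.85 and 22 CPM in BV and 10.6, 7.43, 1.99 and 4.04 CPM in S (1.85 ± 0.26, adjusted p = 0.0369). All of these genes were also called higher in BV of cyclic gilts.

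Among genes called higher in S and picked in the same way, CNTNAP2, a cell adhesion protein of axons, was at 138, 149, 178 and 101 CPM in BV and 467, 292, 432 and 384 CPM in S (-1.48 ± 0.19, adjusted p = 0.0276), SCN1A, a sodium channel, at 1.09, 1.11, 3.57 and 4.56 CPM in BV and 16.1, 6.78, 16.6 and 54.2 CPM in S (-3.05 ± 0.35, adjusted p = 0.0247), and KIF5C, a kinesin, at 2.18, 4.43, 6.78 and 1.24 CPM in BV and 8.06, 36.2, 32.9 and 11.5 CPM in S (-2.56 ± 0.30, adjusted p = 0.0247). NTRK2, the receptor of brain-derived neurotrophic factor, was at 72.8, 110.5, 92.4 and 85 CPM in BV and 162, 254, 177 and 178 CPM in S (-1.09 ± 0.12, adjusted p = 0.0244). S values lay above BV values in all of them. SCN1A and KIF5C, however, are listed as detectable in 1 compartment alone and entered the test only through that listing. C3, the central complement protein, was higher in S of each pregnant gilt, at 519.7, 105, 329 and 291 CPM in BV and 1457, 208, 533 and 659 CPM in S (-1.09 ± 0.16, adjusted p = 0.0374), with a fold change of 0.24 in cyclic gilts, and the difference between the groups did not pass the test (adjusted p = 0.854).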
